A study of Mus musculus with 12 samples.

Results

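A set of 8 genes of cholesterol synthesis and its feedback was followed in the RNA-Seq values of osteoblasts treated with parathyroid hormone (PTH) and of osteoblastic cells that overexpress *Slpi*. They are *Hmgcs1*, *Idi1*, *Fdps*, *Fdft1*, *Sqle*, *Lss*, *Cyp51* and *Insig1*, chosen by name as sterol-regulated genes. The choice of these genes and of the other lists was made with earlier results of these data known, so counts among them are descriptions. They are 8 of the 23284 genes listed for sorted osteoblasts and 8 of the 24346 listed for MC3T3-E1 cells. All 8 had an FPKM above 0 in each of the 12 libraries and passed the filter on low values in both experiments. FPKM is the number of fragments on a gene scaled to its transcript length and to how many reads the library had mapped. The first 7 encode enzymes and *Insig1* encodes a sensor, and none of the 8 takes up sterol from outside the cell, so they are described here as synthesis and feedback genes.

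In the first experiment, vehicle and PTH were each represented by 3 libraries of osteoblasts from female Col2.3-ECFP mice, which were 12 weeks old when treatment began. All these mice carried a cyan fluorescent reporter driven by a fragment of the type I collagen promoter, and the cells were sorted as 7AAD-, Lin-, CD45- and ECFP+ events. PTH(1-34) was injected over 3 weeks at a daily dose of 40 µg/kg, with 5 injection days a week, vehicle was the control, and cells were taken 24 h after the last injection. In the second, 3 mock libraries and 3 *Slpi* libraries came from MC3T3-E1, a clonal mouse osteoblastic line, at subconfluence. Mock cells carried the retroviral vector pMX-IRES-Puro and *Slpi* cells the same vector with *Slpi* (secretory leukocyte protease inhibitor), and both were selected with puromycin. The study's methods say in general that biological replicates were taken from different mice. No label ties a sorted library to an animal, and for the MC3T3-E1 libraries separate cultures are not stated, so *p* values there measure only the spread between these libraries, which may be technical. The 2 experiments were normalised separately and no test was made between them.

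Cells make cholesterol from acetyl-CoA through mevalonate, isoprenoid phosphates, squalene and lanosterol. When sterol in the endoplasmic reticulum membrane is low, the escort protein SCAP carries the transcription factor SREBP-2 to the Golgi, where 2 proteases release its active part, and the genes of the whole chain are switched on together. When sterol is plentiful, INSIG proteins hold SCAP back and these genes fall. The same chain supplies the farnesyl and geranylgeranyl groups of small GTPases, and FDPS, which makes farnesyl diphosphate, is the target of the nitrogen-containing bisphosphonates used against bone loss.

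In GENCODE M21, on the build to which the authors mapped their reads (mm10, GRCm38), all 8 are protein-coding genes. *Hmgcs1* lies at chr13:119690379-119708260 and *Idi1* at chr13:8885501-8892451, both on the plus strand. *Fdps* (chr3:89093588-89101959) and *Fdft1* (chr14:63145150-63179578) are on the minus strand. *Sqle* (chr15:59315077-59331192) and *Lss* (chr10:76531588-76557138) are on the plus strand. *Cyp51* (chr5:4081145-4104746, minus) and *Insig1* (chr5:28071363-28078662, plus) share a chromosome. Of the 75-base windows of the longest transcript, 75 bases being the read length, 20.7% in *Idi1* also occur in 4 other gene models, 9.24% in *Fdps* in 3 others, 6.07% in *Fdft1* in 1 other and 0.877% in *Insig1* in 1 other. Reads from these windows could have been split between genes, so the levels of *Idi1*, *Fdps* and *Fdft1* are the less certain ones. No such window was found in *Hmgcs1*, *Sqle*, *Lss* or *Cyp51*.

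RefSeq promoters of 5 of the 8 were at hand (GRCm38.p6), and 4 are shown because their genes stand at the ends of the response to *Slpi*: *Hmgcs1* and *Lss* had the largest falls, *Cyp51* the smallest that passed the test, and *Insig1* did not pass. Each runs 5′ to 3′ on the strand of its gene, from 250 bases before the RefSeq start down to that start or, where GENCODE starts the gene earlier, to the base before it. They span chr13:119690101-119690350 (plus), chr10:76531355-76531587 (plus), chr5:4104747-4104947 (minus) and chr5:28071162-28071362 (plus), in the order *Hmgcs1*, *Lss*, *Cyp51* and *Insig1*. Capitals mark matches, on either strand, to TCACNCCAC (core letters of the sterol regulatory element to which SREBPs bind), CACGTG (an E-box), CCAAT (the box of the factor NF-Y) and GGGCGG (a GC box of the Sp1 family). None of these 4 motifs contains another.
Hmgcs1: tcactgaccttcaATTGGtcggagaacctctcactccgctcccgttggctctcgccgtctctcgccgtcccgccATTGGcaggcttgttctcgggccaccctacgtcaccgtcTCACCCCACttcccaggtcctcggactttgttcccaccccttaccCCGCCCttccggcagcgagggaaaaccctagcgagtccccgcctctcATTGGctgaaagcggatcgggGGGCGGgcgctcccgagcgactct
Lss: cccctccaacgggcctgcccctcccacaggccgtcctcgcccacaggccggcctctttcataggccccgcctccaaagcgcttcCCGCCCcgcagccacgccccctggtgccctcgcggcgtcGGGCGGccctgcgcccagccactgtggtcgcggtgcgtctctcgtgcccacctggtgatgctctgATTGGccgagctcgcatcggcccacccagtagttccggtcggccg
Cyp51: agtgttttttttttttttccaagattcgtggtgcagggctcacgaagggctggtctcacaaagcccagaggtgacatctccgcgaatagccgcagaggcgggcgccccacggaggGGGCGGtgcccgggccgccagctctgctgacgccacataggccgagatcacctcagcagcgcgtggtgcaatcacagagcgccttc
Insig1: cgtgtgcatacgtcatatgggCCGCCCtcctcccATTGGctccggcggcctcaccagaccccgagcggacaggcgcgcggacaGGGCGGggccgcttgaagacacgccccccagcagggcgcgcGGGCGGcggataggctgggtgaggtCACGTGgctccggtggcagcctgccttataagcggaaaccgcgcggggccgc

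In the full 250 bases before the RefSeq start, all 5 member promoters held CCAAT or its reverse complement, and all 5 held GGGCGG. Of the 32851 promoters in the table, 33.8% held the first and 32.7% the second. TCACNCCAC was found in 1 of the 5, that of *Hmgcs1*, where it begins 137 bases before the start, and in 1.05% of all promoters. CACGTG was found in 1 of the 5, that of *Insig1*, 101 bases before the start, and in 6.02% of all promoters. A match is a description of the letters and not a bound site, and a missing match says only that these letters are not in this window.

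The depth in reads is unknown from FPKM. The step that 1 read makes in low values gave a depth of 0.788 to 1.40 relative to vehicle replicate 1 in sorted osteoblasts and of 0.871 to 1 relative to mock replicate 1 in MC3T3-E1 cells. *Slpi* itself was at 1.64, 2.38 and 2.62 FPKM in vehicle, 37.5, 19.8 and 27.2 in PTH, 377, 396 and 386 in mock and 2105, 1973 and 1848 in *Slpi* libraries, in the order of their labels. The sorted libraries carried the osteoblast markers *Bglap*, *Sp7*, *Alpl* and *Dmp1*, while *Col1a1* and *Col1a2* were listed at 0 in vehicle replicate 3 and in all PTH libraries. PTH replicate 2 stood apart by muscle genes: *Acta1*, *Myh6*, *Ckm* and *Tnnt2* summed to 892 FPKM there, against 0.366 to 8.25 in the other 5 libraries. PTH replicate 3 had the lowest sums of cycling-cell (44.3 FPKM), adipocyte (0.773) and T and NK cell (1.22) markers of the 6, and *Adipoq* and *Cfd* were at 0 in it. MC3T3-E1 libraries differed less, with cycling-cell sums of 410 to 436 FPKM in mock and 586 to 648 in *Slpi* libraries, and *Bglap* at no more than 2.85 FPKM in any of them.

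Sorted osteoblasts held much more message for the sensor than for any of the enzymes. In vehicle, *Insig1* was at 113 ± 16.5 FPKM (SD, n = 3), followed by *Hmgcs1* at 20.5 ± 2.89 and *Fdps* at 16.9 ± 1.42, whose ranges overlapped. *Idi1* (9.83 ± 2.25), *Cyp51* (7.81 ± 1.41), *Fdft1* (7.19 ± 1.13) and *Sqle* (6.24 ± 1.15) came next, and each overlapped with its neighbour in this order. *Lss*, which folds squalene epoxide into lanosterol, was lowest at 1.65 ± 0.0844 and did not overlap with *Sqle*.

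In mock MC3T3-E1 cells the order was different, and no neighbours overlapped. *Fdps* led at 315 ± 8.57 FPKM, before *Hmgcs1* (136 ± 4.18), *Sqle* (114 ± 0.713), *Cyp51* (103 ± 1.26), *Insig1* (78.1 ± 2.08), *Idi1* (64.3 ± 2.09), *Fdft1* (43.6 ± 0.764) and *Lss* (27.0 ± 1.00). The 7 enzymes together summed to 785 to 819 FPKM in mock libraries and to 65.4 to 75.9 FPKM in vehicle libraries. These are sorted cells and a growing line in tables scaled separately, and the values are set side by side without a test. Whether both experiments used the same library kit is uncertain, since the labels and the paper differ for MC3T3-E1 cells.

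**Figure D1:**
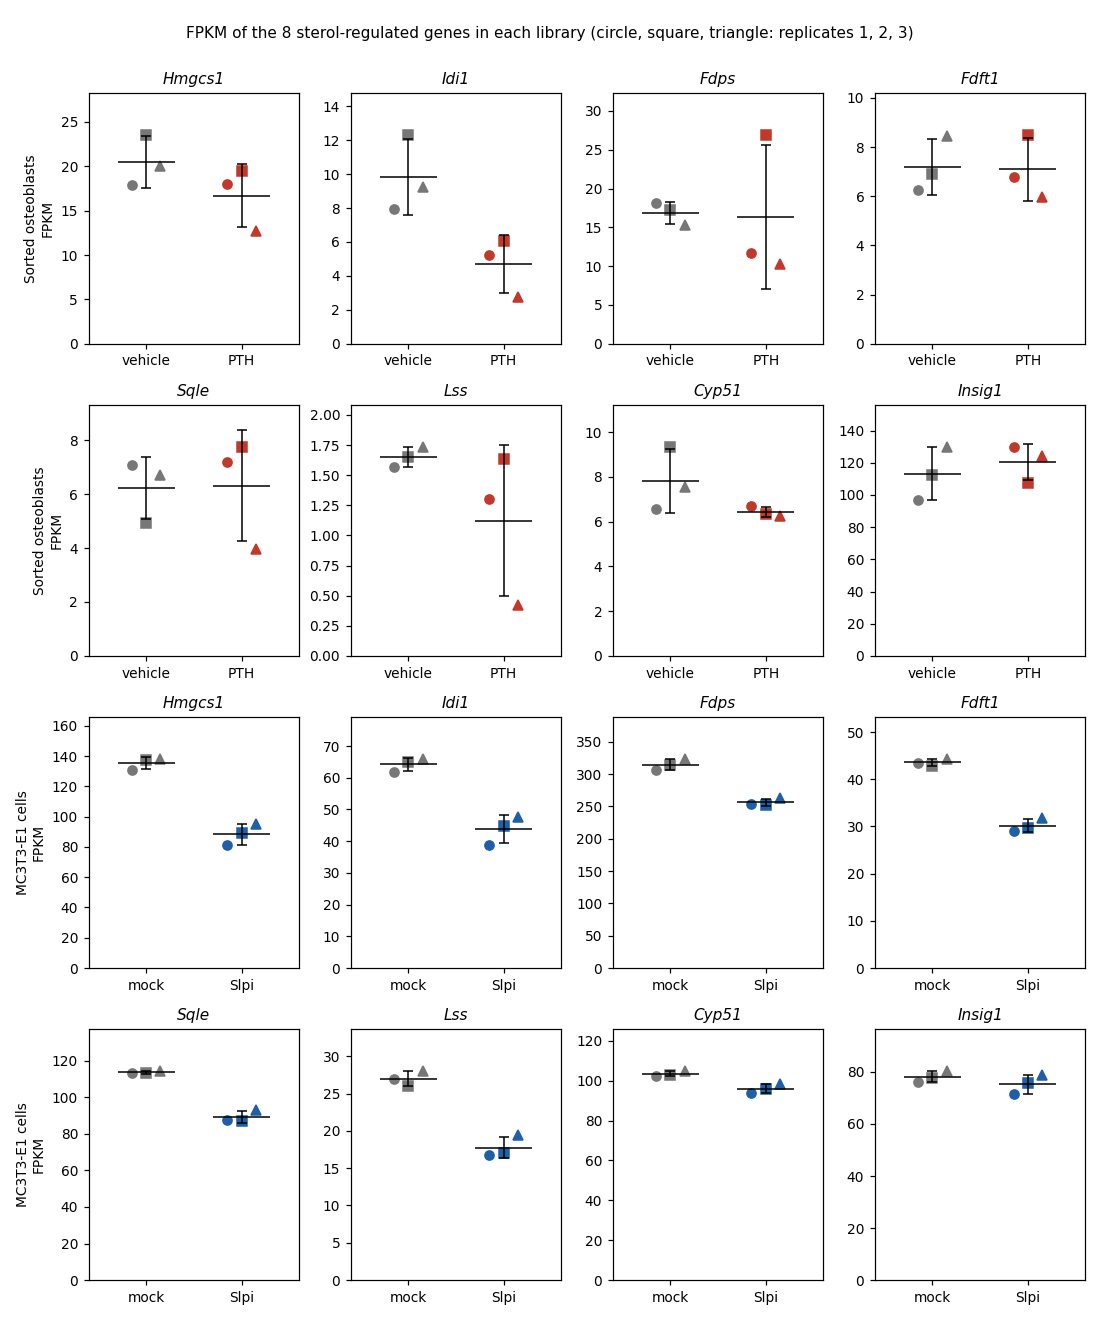
FPKM (linear axes from 0) of the 8 genes in each library, with vehicle and PTH in the upper 2 rows and mock and Slpi in the lower 2. Points are libraries, with circle, square and triangle for replicates 1, 2 and 3, and bars give the mean and SD of 3 libraries. Only *Idi1* separates PTH from vehicle, whereas every gene but *Insig1* separates Slpi from mock.

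PTH was compared with vehicle to ask how intermittent hormone treatment changed the osteoblast. None of the 8 genes passed the threshold of an adjusted *p* under 0.05 in limma (Benjamini-Hochberg over the 13004 genes tested, on log2(FPKM + 1)). Over all genes tested, 6.38% passed as higher and 8.85% as lower. At an unadjusted *p* under 0.05 there was 1 member, *Idi1*, where 33.5% of all genes tested were. On the log2 scale, 7 of the 8 were below vehicle, with a median difference of -0.20 against 0.01 over all genes. The groups did not overlap for 1 member, *Idi1*, which was lower. Over all genes this held for 20.9% as lower and 19.5% as higher. In such bulk samples, fewer cells of a type and less RNA per cell cannot be told apart.

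*Idi1*, the isomerase that interconverts isopentenyl and dimethylallyl diphosphate, had the largest difference. It was at 7.94, 12.3 and 9.23 FPKM in vehicle and at 5.21, 6.05 and 2.77 in PTH. All 3 PTH libraries were below all 3 vehicle libraries, and the mean with PTH was 0.476 of the vehicle mean. The difference was -0.96 on the log2 scale (95% interval -1.58 to -0.34, adjusted *p* = 0.0517 in limma), so it missed the threshold. Across the alternatives and left-out libraries its adjusted *p* ranged from 0.0359 to 0.170, and it passed with quantile normalization (adjusted *p* = 0.0466), with a replicate block (0.0359) and without PTH replicate 2 (0.0441).

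*Hmgcs1*, the cytosolic synthase that makes HMG-CoA, was at 17.9, 23.6 and 20.0 FPKM in vehicle and at 18.0, 19.5 and 12.7 in PTH. PTH replicates 1 and 2 lay within the vehicle range and replicate 3 below it (log2 difference -0.29, 95% interval -0.72 to 0.14, adjusted *p* = 0.302 in limma). *Fdps* was at 18.1, 17.2 and 15.3 in vehicle and at 11.7, 27.0 and 10.3 in PTH. PTH replicate 2 was thus the highest of all 6 libraries while the other 2 were the lowest, and the SD with PTH was 9.22 around a mean of 16.3. Its difference was -0.17 (-0.93 to 0.60, adjusted *p* = 0.744), and without PTH replicate 2 it was -0.57 with an adjusted *p* of 0.0439.

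*Fdft1* and *Sqle*, enzymes of the squalene branch, lay closer to vehicle. *Fdft1*, squalene synthase, was at 6.25, 6.88 and 8.45 FPKM in vehicle and at 6.79, 8.51 and 5.97 in PTH. *Sqle*, which oxidises squalene, was at 7.08, 4.93 and 6.72 in vehicle and at 7.21, 7.76 and 3.95 in PTH. For both the groups overlapped widely, and the log2 differences were -0.02 (-0.41 to 0.37) and -0.02 (-0.60 to 0.56), with adjusted *p* values in limma of 0.938 and 0.966. These intervals leave room for changes of either sign.

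*Lss* was at 1.57, 1.65 and 1.74 FPKM in vehicle and at 1.30, 1.64 and 0.424 in PTH. PTH replicate 2 was within the vehicle range and replicate 3 far under it (log2 difference -0.37, -0.97 to 0.23, adjusted *p* = 0.348 in limma). *Cyp51*, which removes a methyl group from lanosterol, was at 6.57, 9.34 and 7.53 in vehicle and at 6.68, 6.32 and 6.27 in PTH. The PTH libraries were tightly grouped at and just under the lower end of the vehicle range (-0.24, -0.57 to 0.10, adjusted *p* = 0.290 in limma). *Insig1* was at 96.9, 113 and 129.9 in vehicle and at 129, 108 and 124 in PTH, and it was the only member above vehicle on the log2 scale (0.10, -0.22 to 0.41, adjusted *p* = 0.637).

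PTH replicate 3 was the lowest of all 6 libraries for 7 of the 8 members, *Insig1* being the exception, and for 26.6% of all genes tested. This library also had the fewest genes at 1 FPKM or more (10795, against 11463 to 11746 in the other 5) and the largest sum of FPKM (462460, against 400839 to 431278), and their part in its low values was not tested. The sums include *Col1a1* and *Col1a2* only in vehicle replicates 1 (26216.5 and 26654.7 FPKM) and 2 (24170.4 and 24544), so they are not alike in content. In PTH replicate 3 *Idi1* lay 1.50 below the vehicle mean on the log2 scale (a deviation of -1.50), *Lss* at -0.90, *Fdps* at -0.66, *Hmgcs1* at -0.64 and *Sqle* at -0.54. PTH replicate 2 was the highest of its group for 6 of 8 members and for 33.1% of all genes. Without replicate 3 the median difference of the 8 was -0.02. Without replicate 2 it was -0.32, and 2 of 8 (*Idi1* and *Fdps*) passed the threshold as lower, where 7.01% of all genes did. Without both, which leaves 1 PTH library assumed to vary like the vehicle libraries, the median was -0.18, against -0.01 over all genes.

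Other marker lists moved with PTH and with these 2 libraries. Among all genes tested with PTH, 6.38% passed as higher and 8.85% as lower. Of 8 cycling-cell markers 4 passed as lower, with sums of 112 to 192 FPKM in vehicle and 44.3 to 89.7 in PTH. Neutrophil markers passed as higher in 6 of 9 (375 to 468 FPKM in vehicle, 698 to 2357 in PTH) and T and NK cell markers as lower in 3 of 5 (99.8 to 160.3 and 1.22 to 21.4). Osteoblast markers passed as higher in 2 of 11 and as lower in none, with a median difference of 0.39: *Alpl* was at 205, 185 and 216 FPKM in vehicle and 294, 261 and 378 in PTH, and *Spp1* at 1878, 1690.3 and 2042 in vehicle and 3437, 3085 and 3321 in PTH. None of 4 muscle, 3 adipocyte or 4 megakaryocyte markers tested passed in either direction. Megakaryocyte sums were 1.79 to 4.56 FPKM in vehicle, 177 and 142 in PTH replicates 1 and 2 and 2.41 in replicate 3. The part of any of these in the values of the 8 genes was not tested.

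**Figure D2:**
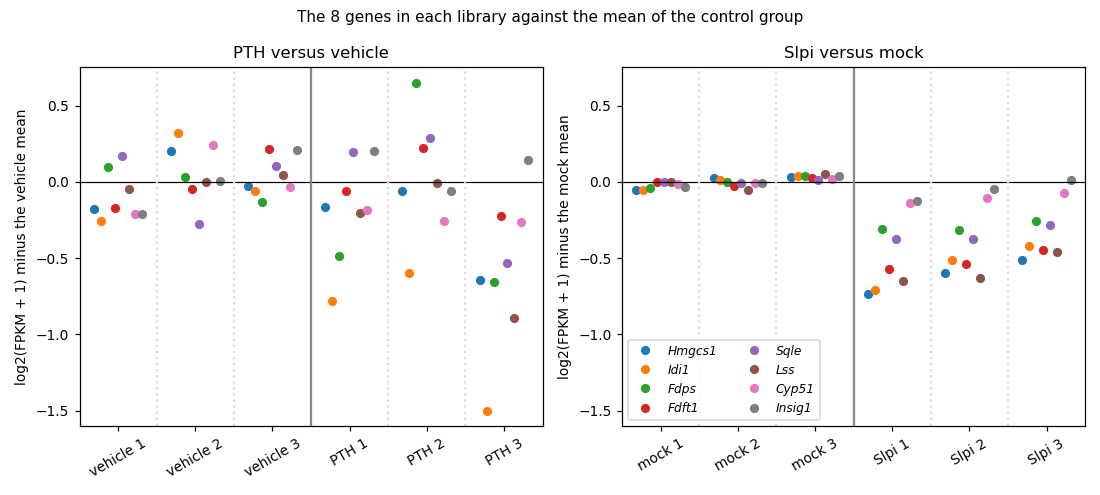
Log2(FPKM + 1) of each gene in each library minus the mean of its control group (vehicle on the left, mock on the right), with 1 colour per gene. PTH replicate 3 lies lowest for 7 of 8 genes in the left panel, with *Idi1* at -1.50, while the 3 Slpi libraries sit at -0.42 to -0.73 for *Hmgcs1* and *Idi1*.

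*Slpi* cells were compared with mock cells to ask what constitutive *Slpi* did in osteoblasts. Here 7 of the 8 genes fell (adjusted *p* under 0.05 in limma over the 11466 genes tested), and none rose. Over all genes tested 28.9% passed as lower and 31.9% as higher, so most genes of any kind passed in this experiment. The median difference of the 8 was -0.43, against 0.00 over all genes, whose lower and upper quartiles were -0.19 and 0.20. For the same 7 genes the 3 *Slpi* libraries were all below the 3 mock libraries, which held for 32.2% of all genes, and 34.9% were non-overlapping in the other direction.

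Among the 8 genes, *Hmgcs1* showed the largest difference. It was at 130.7, 137.6 and 138.2 FPKM in mock and at 81.0, 89.4 and 94.9 in *Slpi* cells, and fell by 34.7% in mean FPKM. On the log2 scale this was -0.61 (95% interval -0.74 to -0.48, adjusted *p* = 4.45e-05 in limma). *Idi1* was at 62.0, 64.9 and 66.0 in mock and at 38.9, 44.7 and 47.8 in *Slpi* cells (-0.55, -0.70 to -0.39, adjusted *p* = 0.000210). Both genes had a gap between the groups that was wider than the spread within either.

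*Fdps*, the most abundant of the 8 in these cells, was at 306, 314 and 323 FPKM in mock and at 254, 253 and 263 in *Slpi* cells. It fell by 18.4%, which was -0.29 on the log2 scale (-0.37 to -0.22, adjusted *p* = 0.000132 in limma). *Fdft1*, which draws farnesyl diphosphate into squalene, was at 43.5, 42.8 and 44.3 in mock and at 29.0, 29.7 and 31.7 in *Slpi* cells (-0.52, -0.61 to -0.43, adjusted *p* = 2.17e-05). The interval of *Fdft1* lay wholly below that of *Fdps*.

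*Sqle* was at 113.3, 113.0 and 114.3 FPKM in mock, which is nearly the same value 3 times, and at 87.5, 87.2 and 93.0 in *Slpi* cells (-0.34, -0.42 to -0.27, adjusted *p* = 6.51e-05 in limma). *Lss* was at 27.0, 26.0 and 28.0 in mock and at 16.8, 17.0 and 19.4 in *Slpi* cells, and fell by 34.3% (-0.58, -0.71 to -0.45, adjusted *p* = 6.47e-05). The least abundant enzyme thus fell about as far as *Hmgcs1*.

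*Cyp51* was at 102, 103 and 105 FPKM in mock and at 93.7, 96.1 and 98.1 in *Slpi* cells. It fell by 7.24%, or -0.11 on the log2 scale (-0.18 to -0.04, adjusted *p* = 0.0155 in limma), and without mock replicate 3 the adjusted *p* was 0.0639, which no longer passed. *Insig1* was at 76.2, 77.8 and 80.3 in mock and at 71.4, 75.6 and 78.8 in *Slpi* cells. These ranges overlapped and the difference was -0.05 (-0.15 to 0.04, adjusted *p* = 0.292). When each library was scaled to the same sum of FPKM it was -0.15 with an adjusted *p* of 0.0460 in limma. That scaling also moved the median over all genes from 0.00 to -0.09, and 37.9% of all genes passed as lower.

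Replicate 3 was the highest library of its group for all 8 genes in mock cells and again for all 8 in *Slpi* cells. Of all genes tested, 33.3% were highest in mock replicate 3, 27.5% in *Slpi* replicate 3 and 11.4% in both. Within the mock group this spread was small, at most 0.05 from the mean on the log2 scale for any of the 8. In *Slpi* cells, measured from the mock mean, it was wider for *Hmgcs1* (-0.73 to -0.51) and *Idi1* (-0.71 to -0.42). It was not wider for *Fdps* (-0.31 to -0.26). The 7 falls kept their sign without any 1 library, and 6 or 7 of the 8 passed. Of all genes, 25.5% to 28.8% passed as lower in these fits. Cycling-cell markers passed as higher in 7 of 8 and osteoblast markers as higher in 8 of 11 (lower in 1). Over all genes tested, 31.9% passed as higher and 28.9% as lower. The part of these markers in the values of the 8 genes was not tested. The T and NK cell, B cell, endothelial, adipocyte and muscle markers had no member at 1 FPKM or more in any library of this experiment.

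**Figure D3:**
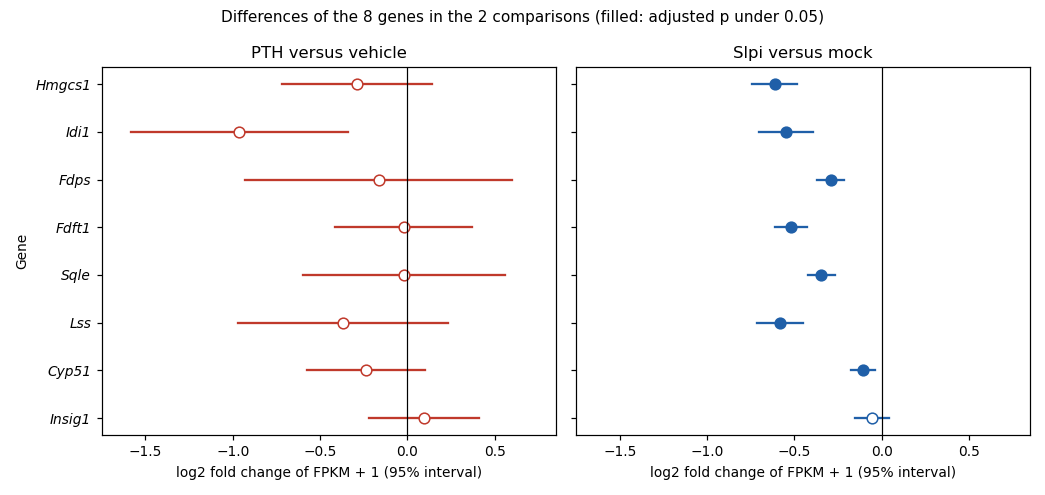
Log2 fold change of FPKM + 1 for each of the 8 genes, PTH against vehicle on the left and Slpi against mock on the right, with 95% intervals from limma. Filled points passed an adjusted *p* under 0.05: 0 of 8 on the left and 7 of 8 on the right, where *Cyp51* and *Insig1* lie nearest to 0.

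*Insig1* and *Hmgcs1* can be read against each other within a library, since FPKM is per length. The ratio of *Insig1* to *Hmgcs1* was 5.43, 4.78 and 6.50 in vehicle and 7.19, 5.53 and 9.83 in PTH, with overlap between the groups. It was 0.583, 0.565 and 0.581 in mock and 0.881, 0.846 and 0.830 in *Slpi* cells, without overlap. In each *Slpi* library *Hmgcs1* was still the higher of the 2. The summed FPKM of the 7 enzymes was 56.9, 76.7 and 42.4 in PTH, against 65.4 to 75.9 in vehicle, and 601, 617 and 648 in *Slpi* cells, against 785 to 819 in mock.

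The other genes of sterol and fatty acid metabolism were taken as 5 lists. Of 51 such genes tested in sorted osteoblasts 4 rose and 2 fell with PTH, and of 50 tested in MC3T3-E1 cells 6 rose and 31 fell with *Slpi*. Among all genes these shares were 6.38% and 8.85% for PTH and 31.9% and 28.9% for *Slpi*. The calls under PTH were fragile. Without vehicle replicate 1 or without vehicle replicate 2 none of the 6 remained past the threshold, and over all genes 1 and 0 calls were left. In each of those fits 1 member of the 8 was at an unadjusted *p* under 0.05 in limma. In the main fit 33.5% of all genes tested were under that level.

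Among 15 other enzymes of cholesterol synthesis, 12 fell and 2 rose with *Slpi*, and the median was -0.44. *Mvk*, mevalonate kinase, went from 75.3 ± 0.440 FPKM in mock to 45.5 ± 1.33 in *Slpi* cells (-0.71, adjusted *p* = 1.80e-06 in limma, n = 3 each). *Mvd*, which makes isopentenyl diphosphate, was at 46.2 ± 0.791 and 27.3 ± 1.54 (-0.74). *Tm7sf2*, one of the sterol C14 reductases, was at 18.9 ± 1.00 and 9.59 ± 0.670 (-0.91), the largest fall of the list. *Dhcr7*, the last enzyme of one route to cholesterol, was at 30.5 ± 0.541 and 20.3 ± 0.473 (-0.57).

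The 2 that rose with *Slpi* were *Lbr* and *Ebp*. *Lbr*, the lamin B receptor gene, encodes a protein that also has sterol C14 reductase activity, so the transcripts of *Tm7sf2* and *Lbr* moved in opposite directions. *Lbr* was at 18.8 ± 0.135 FPKM in mock and 25.6 ± 0.360 in *Slpi* cells (0.42, adjusted *p* = 2.19e-05 in limma). *Ebp*, a sterol isomerase named here after its value was seen, rose by 0.23 on the log2 scale (adjusted *p* = 0.000641). With PTH 1 of the 15 rose, none fell and 8 lay below vehicle, with a median of -0.12. *Lbr* and *Dhcr7* did not overlap between PTH and vehicle and missed the threshold (-0.56 and -0.73, adjusted *p* = 0.0544 and 0.0521 in limma).

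In the list of sterol sensing and SREBP processing, 2 of 8 rose and 2 fell with *Slpi*, with a median of -0.05. *Mbtps2*, a protease that releases SREBPs, rose by 0.24 on the log2 scale. *Srebf1*, which encodes SREBP-1, fell by 0.14 and *Insig2*, the other *Insig* gene, by 0.13. The call of *Insig2* (adjusted *p* = 0.0427) was lost in 6 alternatives. With PTH *Insig2* was the 1 gene of the 8 that passed: it was at 32.2, 31.0 and 34.5 FPKM in vehicle and at 44.0, 42.0 and 41.7 in PTH, with every PTH library above every vehicle library (0.38, 95% interval 0.16 to 0.59, adjusted *p* = 0.0382 in limma). This call was lost without any 1 of the 6 libraries, and also under quantile normalization, with equal sums of FPKM and without the trend. The difference of *Insig1* in the same libraries was 0.10, with overlap.

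Uptake and transport of sterol in the cell had 9 of its 10 genes tested in each comparison. With PTH 2 of the 9 rose, none fell and the median was 0.35. *Scarb1*, a receptor for high-density lipoprotein, was at 9.38, 7.73 and 11.4 FPKM in vehicle and at 17.6, 14.8 and 18.6 in PTH (0.78, adjusted *p* = 0.0268 in limma). *Npc2*, which carries cholesterol inside the lysosome, was at 31.4 ± 1.33 in vehicle and 48.7 ± 4.30 in PTH (0.61, adjusted *p* = 0.0181, n = 3 each). Without PTH replicate 1 *Scarb1* and *Npc2* missed the threshold (adjusted *p* = 0.0758 and 0.0555 in limma), as they did without vehicle replicate 1 or 2.

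With *Slpi* 7 of 9 fell, none rose and the median was -0.25. *Lrp1*, an endocytic receptor, was at 224 ± 4.47 FPKM in mock and 155 ± 11.0 in *Slpi* cells (-0.53). *Mylip* (a ubiquitin ligase), *Lipa* (lysosomal acid lipase), *Scarb1* and *Npc1* fell by 0.61, 0.35, 0.25 and 0.27 on the log2 scale. The 2 comparisons were not tested against each other.

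Sterol efflux and storage had 7 genes tested with PTH, and none passed. The smallest *p* was that of *Nr1h2*, which encodes an oxysterol receptor (0.33, adjusted *p* = 0.0829 in limma). With *Slpi* 2 of 6 rose and 1 fell. *Ch25h*, which makes an oxysterol, was at 0.304, 0.430 and 0.302 FPKM in mock and at 1.59, 2.13 and 1.55 in *Slpi* cells (1.03 on the log2 scale with the pseudocount of 1, adjusted *p* = 6.77e-05). *Abca1*, the cholesterol exporter, was at 1.73 ± 0.0727 and 1.19 ± 0.162 (-0.32).

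Of 12 fatty acid genes that SREBPs also drive, 9 fell and none rose with *Slpi*, with a median of -0.24. *Acss2*, which makes acetyl-CoA from acetate, was at 22.9 ± 1.30 FPKM in mock and 12.1 ± 0.874 in *Slpi* cells (-0.87). *Acly*, *Fads1*, *Scd1* and *Fasn* fell by 0.49, 0.35, 0.35 and 0.25 on the log2 scale. With PTH 2 of the 12 fell and none rose. *Elovl6*, a fatty acid elongase, was at 5.48, 6.99 and 4.21 FPKM in vehicle and at 2.51, 2.04 and 0.933 in PTH (-1.24, adjusted *p* = 0.0297 in limma), and *Elovl5* was at 16.6 ± 2.44 and 10.8 ± 1.23 (-0.57, adjusted *p* = 0.0429). Without the filter on low values both *Elovl6* and *Elovl5* missed the threshold (adjusted *p* = 0.0503 and 0.0605). *Elovl5* also missed it without the trend (adjusted *p* = 0.0571 in limma), without PTH replicate 1 (0.111) and without PTH replicate 3 (0.0817).

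**Figure D4:**
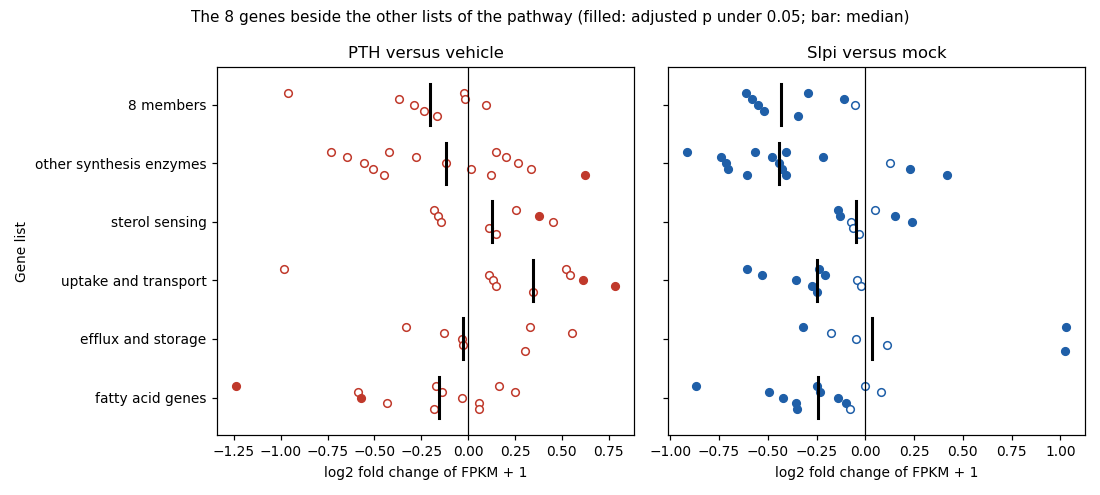
Log2 fold change of FPKM + 1 for the 8 genes and for each tested gene of the 5 other lists, PTH against vehicle on the left and Slpi against mock on the right, spread vertically only for legibility. Filled points passed an adjusted *p* under 0.05 and bars are medians, which for Slpi are -0.43 for the 8 genes, -0.44 for the other synthesis enzymes and -0.24 for the fatty acid genes.

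Genes most like the 8 were sought by Pearson's *r* with the mean standardised profile of the 8 over the 6 libraries of each experiment, among 6167 genes with a mean of at least 5 FPKM in both, ranked by the smaller of the 2 values. The points share libraries and depth, so *r* is a description. The first 5 outside the lists were *Srsf5*, *Gsta4*, *Actg2*, *Calml4* and *Cav1*, with a smaller *r* of 0.967, 0.955, 0.954, 0.952 and 0.949. *Cav1*, which encodes the cholesterol-binding coat protein of caveolae, was at 128 ± 2.94 FPKM in mock and 79.4 ± 1.11 in *Slpi* cells, and at 12.5 ± 3.19 in vehicle and 10.5 ± 6.37 in PTH. *Actg2*, a smooth muscle actin, was at 78.6 ± 2.28 in mock and 31.8 ± 0.442 in *Slpi* cells, and at 47.3 ± 14.7 in vehicle and 29.8 ± 38.1 in PTH, where 1 library decided the mean. *Acss2* ranked 11th and the sterol oxidase gene *Msmo1* 19th by the same measure. Of the members themselves, *Hmgcs1* ranked 7th, *Idi1* 36th, *Fdft1* 85th and *Fdps* 182nd. *Sqle*, *Cyp51* and *Insig1* ranked lower than *Fdps*, and *Lss* was under the limit of 5 FPKM. The profile was thus not shared equally by the 8.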

How the data were processed

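RNA-Seq values were analysed from 3 libraries each of vehicle- and PTH-treated sorted osteoblasts and of mock and *Slpi* MC3T3-E1 cells. The values deposited by the authors are FPKM, one per gene and library. Per the labels and methods, 75-base single-end reads were aligned to mm10 (TopHat 2.0.13 running Bowtie2 2.2.3, with SAMtools 0.1.19), and Cuffnorm of Cufflinks 2.2.1 scaled the values. The gene annotation is not given in the sources used here. The labels and the paper name different library kits for MC3T3-E1 cells, so whether strand was kept is uncertain there. Values of MC3T3-E1 cells are rounded to 3 decimals. *Msmo1* is listed under its older symbol *Sc4mol* in 1 of the 2 experiments.

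Each experiment was fitted on its own as 3 libraries against 3, with limma 3.58.1 (eBayes with a trend, R 4.3.3) on log2(FPKM + 1) for genes that reached an FPKM of 1 in any of the 6 libraries. *P* values were two-sided and adjusted by Benjamini-Hochberg over all genes tested. A fold change on this scale understates that of low genes. Exact permutation of 3 against 3 cannot give a *p* below 0.1 and was not used. Genes named are the 8, in each list those past the threshold (at most the 5 of smallest *p*, otherwise the first), and the 5 most alike. The members and lists were chosen with earlier results of these data known. Some genes of the lists are counted but not reported singly. The alternatives were a pseudocount of 0.1, no filter, a filter on a mean FPKM of 1, the same sum of FPKM in each library (TPM scaling), quantile normalization, no trend, a replicate block and leaving out each library, and leaving out PTH replicates 2 and 3 together was added after seeing the data.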

Additional observations from a re-analysis of the deposited data

How the results depend on the processing

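The 7 falls with *Slpi* kept their direction under all 13 alternatives. In these, 6 to 8 of the 8 genes passed, where 20.6% to 37.9% of all genes passed as lower. With PTH, 1 of 8 passed under quantile normalization and 1 with the replicate block (*Idi1* in both). Of all genes, 8.17% and 9.49% passed as lower there. When 1 library was left out, 0 to 2 of the 8 passed, where 0% to 7.01% of all genes passed as lower. The fold change turned positive under quantile normalization for *Fdft1* (0.0628) and *Sqle* (0.0795) and negative for *Insig1* (-0.13), and without both PTH replicates 2 and 3 it was 0.19 for *Sqle*. Leaving out 1 library gave -0.144 to 0.0859 for *Fdft1*, -0.170 to 0.241 for *Sqle*, -0.571 to 0.0801 for *Fdps* and -0.0101 to 0.200 for *Insig1*, and the cause was not tested. Of the other pathway genes with PTH, 0 to 4 rose and 0 to 3 fell without 1 library. Among all genes tested, 0 to 674 passed as higher and 0 to 895 as lower in those fits. The number that fell was 0 without the filter, 1 without the trend and 5 with the replicate block. In these 3 fits 4.53%, 7.46% and 9.49% of all genes passed as lower. Over all genes with PTH, 1310 passed without the filter, against 1981. Scaling each library to the same sum moved the share of lower genes among those that passed from 58.1% to 69.6% with PTH and from 47.5% to 65.0% with *Slpi*. The sums of the sorted libraries depend in part on *Col1a1* and *Col1a2*, which were listed at 0 in vehicle replicate 3 and in all PTH libraries. Same-numbered libraries deviated together weakly for PTH and vehicle (r across genes 0.029, 0.073 and 0.102). Differently numbered ones had r of -0.116 to 0.069. For *Slpi* and mock r was 0.04, -0.05 and 0, against -0.099 to 0.105. Whether the numbers pair the libraries is not known, and the main fit did not pair them. With the replicate block 2262 genes passed with PTH, against 1981. The depth in reads is unknown, which limits what can be said of *Lss* in sorted osteoblasts, at 1.74 FPKM or less.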

Other observations

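Farnesyl and geranylgeranyl groups leave the pathway after *Fdps*, and 12 genes that attach them to proteins or build longer isoprenoids from them were listed after the data had been seen, as a description. With PTH none of the 12 passed the threshold in limma; among all genes 6.38% passed as higher and 8.85% as lower. With *Slpi* 5 rose and 2 fell, where 31.9% and 28.9% of all genes did. *Rabggtb*, a subunit of the transferase that modifies Rab proteins, was at 45.1, 45.5 and 45.9 FPKM in mock and at 74.5, 72.4 and 67.9 in *Slpi* cells (0.64 on the log2 scale, adjusted *p* = 7.00e-06 in limma). Its partner *Rabggta* rose by 0.27, *Pdss1* and *Pdss2*, which make the side chain of coenzyme Q, by 0.49 and 0.31, and *Dhdds*, of dolichol synthesis, by 0.20. *Rce1* and *Icmt*, which trim and methylate prenylated proteins, fell by 0.19 and 0.16. The median difference of the 12 was 0.10 with *Slpi*, against -0.43 for the 8 synthesis and feedback genes.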
